A study of Mus musculus with 8 samples.

Results

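The comparison set embryoid bodies grown from parthenogenetic stem cells against undifferentiated embryonic stem cells, gene by gene. It drew on 5 of the 8 mouse arrays of the series, all those whose labels name either culture, and covered the 18194 genes that have a probe set with a single gene symbol. The 2 embryoid body arrays (EB_PSC) hold RNA of C57BL/6 parthenogenetic stem cells that had differentiated in an embryoid body assay for 15 days. The 3 embryonic stem cell arrays (ESC) hold RNA of the line R1, kept undifferentiated on mouse embryonic fibroblast feeder cells with leukemia inhibitory factor, LIF. No strain is named for R1, and no feeder or LIF is named for the embryoid bodies. The remaining 3 arrays hold undifferentiated parthenogenetic stem cells (PSC) of C57BL/6, isolated at day 6 from blastocysts that arose when oocytes of superovulated mice were activated by strontium chloride. Whether the embryoid bodies were made from the same PSC line is not stated. PSC values are given beside a result only where they help to read it. All 3 cultures are mouse cells with no transgene or drug named in the labels. Differentiation, cell line, genome origin and the sex chromosomes all differ between EB_PSC and ESC, so in every difference they cannot be told apart. Whether the replicate arrays of a culture stem from independent cultures is not stated. The p-values therefore measure only how these samples spread, and that spread may be technical.

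Embryoid bodies are free-floating aggregates in which pluripotent cells leave self-renewal and form a mixture of ectoderm, mesoderm and endoderm derivatives, often with beating heart muscle, blood islands and yolk sac endoderm. Embryonic stem cells held with LIF keep a network around Oct4, Sox2 and Nanog that blocks this step. Parthenogenetic cells come from an egg without sperm. They carry maternal genomes only, so imprinted genes that are read from the paternal copy are known to be low or silent in them, and genes read from the maternal copy can be present at a higher dose.

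Values are log2 signals after RMA, a summary of the probes of each probe set that brings all arrays to nearly the same distribution. A probe set whose group mean lies below 5.44, the median of all deposited values, is called dim here. A difference from a dim group is a lower bound in size for the probe set used, also where it is not marked. Most are written so, or with at least. This is a convention, and whether the limit marks the background was not tested. Other probe sets of the same gene can differ by less or by more. Values of single arrays follow the replicate numbers of the labels. Of 18194 genes, 8165 (44.9%) passed the limma test at an adjusted p below 0.05 (3513 higher in embryoid bodies, 19.3%, and 4652 lower, 25.6%). Every count of list members below is to be read beside these shares of 19.3% and 25.6%. With cyclic loess as a further normalization the balance turned to 4435 higher and 3626 lower. Arrays of the groups did not overlap for 61.1% of genes (EB_PSC higher for 25.0% and lower for 36.1%), and the median difference of all genes was -0.07. Differences of at least 1 log2 unit were called for 1602 genes (8.81%) higher and 1680 (9.23%) lower. Past 3 log2 units the sides were unequal, with 252 genes higher and 42 lower. Pearson's r across probe sets was 0.992 between the embryoid body arrays, 0.991 to 0.995 among ESC arrays and 0.925 to 0.941 between the groups. The 3' minus 5' signal of the Gapdh controls was -0.06 and -0.09 in EB_PSC and 0.09 to 0.17 in ESC. That of the Actb controls was 1.17 and 1.09 against 0.69 to 1.13. The part of RNA quality in the results was not tested.

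Short sets of marker genes are described beside the labels of both cultures. All 9 markers of undifferentiated stem cells were above the dim limit in both groups, with a mean log2 signal of 9.79 and 9.67 in EB_PSC against 12.16 to 12.39 in ESC. Of 8 cardiomyocyte markers, 7 were above the limit in EB_PSC and 2 in ESC. All 8 were called higher in EB_PSC, against 19.3% of all genes. Other heart genes outside this set, such as Nkx2-5 and Tnni3, gave no call. The 3 embryonic globin markers had a mean of 11.24 and 11.79 in EB_PSC against 4.57 to 4.70 in ESC. Skeletal muscle markers were dim in both groups (0 of 3 above the limit), and 1 of 4 neural markers was above it in each. Calls were mixed for endothelial (3 higher and 1 lower of 4), fibroblast (3 and 2 of 6) and neural markers (1 and 2 of 4). Of visceral endoderm markers 3 of 5 were higher and of macrophage markers 2 of 4, with 0 lower in either.

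**Figure D1:**
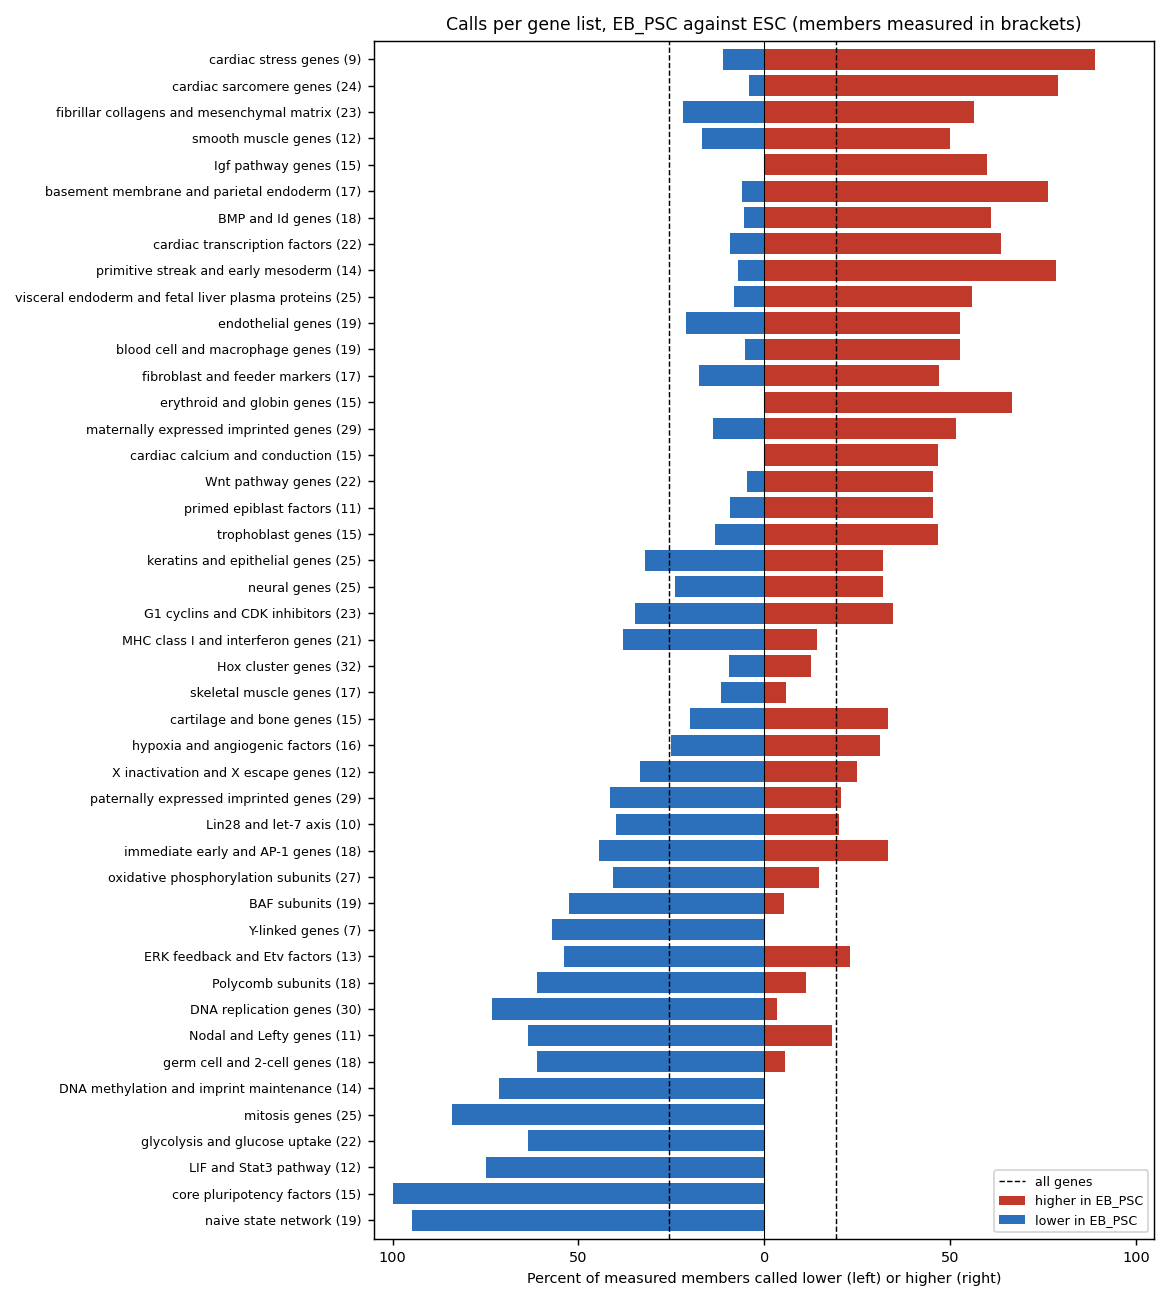
Share of the measured members of 45 gene lists that were called lower (blue, to the left) or higher (red, to the right) in EB_PSC than in ESC, in percent, with the number measured in brackets. Dashed lines give the shares over all genes, 25.6% lower and 19.3% higher. Lists are ordered by their median difference, with the cardiac stress and sarcomere genes at the top and the pluripotency lists at the bottom.

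Blood, heart and endoderm genes led the 15 largest positive differences. The embryonic globin gene Hbb-y read 12.63 and 13.42 in EB_PSC and 3.21, 3.33 and 3.26 in ESC, a difference of at least 9.76 ± 0.19 log2 units (limma adjusted p = 1.26e-12). Both embryoid body arrays lay far above every ESC array. Ankrd1, a heart-enriched ankyrin repeat protein of the sarcomere and nucleus, read 12.55 and 12.20 in EB_PSC and 3.74, 3.89 and 3.66 in ESC, at least 8.61 ± 0.14 higher (2.72e-13). Afp, the fetal plasma protein of yolk sac endoderm and liver, read 9.90 and 11.38 in EB_PSC and 4.08, 4.21 and 3.94 in ESC, at least 6.56 ± 0.30 higher (1e-09). Again no embryoid body array came near an ESC array, although the 2 embryoid body values of Afp stood apart. The other positive differences of this rank belonged to the cardiac actin gene Actc1 (at least 6.42), the globin gene Hbb-bh1 (6.42) and the cardiac T-box factor gene Tbx20 (at least 6.25). They also took in the small heat shock protein gene Cryab (6.13), the endoderm factor gene Sox17 (at least 5.98) and the matrix proteoglycan gene Lum (at least 5.92). Pmp22, a membrane glycoprotein gene first known from myelin (at least 6.66), and Vnn1, which encodes a pantetheinase (at least 6.40), were of like size. So were Asb4, an imprinted gene (6.27), Nrp1, which encodes a co-receptor of VEGF and semaphorins (5.84), Slc39a8, a zinc transporter gene (5.75), and AI662270 (5.96), all of them lower bounds. Without probe sets marked _x_at or _s_at, which can take up related transcripts, Hbb-y differed by 6.04 and Sox17 by 1.21. The other probe sets of Afp differed by -0.13 to 9.57, and those of Hbb-bh1 by 7.66 and 8.47. The order of the largest differences thus depends on the probe set used. When the probe sets of each gene were averaged in place of taking the brightest, Tbx20 differed by 3.01, Cryab by 3.60 and Sox17 by 3.59.

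The 15 largest negative differences held stem cell factors, metabolic enzymes and genes of the Y chromosome or of the paternal copy. Dpys, which encodes the pyrimidine-degrading enzyme dihydropyrimidinase, read 3.94 and 4.92 in EB_PSC and 9.70, 9.87 and 9.90 in ESC, a difference of -5.39 ± 0.21 (limma adjusted p = 3.16e-10) that is a lower bound. Zfp42, which encodes the stem cell zinc finger protein Rex1, read 8.46 and 8.25 in EB_PSC and 12.88, 12.64 and 12.77 in ESC and was 21.2-fold lower (-4.40 ± 0.14, 3.94e-11). Neither gene had overlapping arrays. PSC, the undifferentiated parthenogenetic cells, stood at a mean of 6.94 for Dpys and 10.03 for Zfp42, between the other groups. Esrrb, an orphan nuclear receptor gene of the naive network, differed by -4.01, Klf5, a Kruppel-like factor gene, by -3.94 and the homeobox gene Gbx2 by -4.81. Lncenc1, a long noncoding RNA of embryonic stem cells (-3.82), and Epop, a gene for a Polycomb-associated protein (-4.21), were also among them. Bcat2, a branched-chain aminotransferase gene (-3.93), the meiotic cohesin gene Stag3 (-3.87), the neurofilament-family gene Ina (-3.98) and the ion channel-family gene Ano9 (-4.74) followed. Calml4, a calmodulin-like gene, differed by -4.69 and the exchanger gene Slc9b1 by -3.81. Both were part of no list, and neither were Dpys, Lncenc1, Epop, Bcat2, Stag3, Ina and Ano9. The differences of Gbx2, Epop, Stag3, Ano9 and Slc9b1 are lower bounds, because their EB_PSC means were dim. The Y-linked Eif2s3y (-5.16) and the paternally expressed Snhg14 (-5.10) are described with their groups. Over all probe sets of a gene the mean difference was -1.99 for Dpys, -1.89 for Klf5, -2.56 for Eif2s3y and -2.16 for Slc9b1.

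All 15 core pluripotency genes measured were lower in embryoid bodies, with a median of -2.14, yet all 15 stayed above the dim limit there. Pou5f1, which encodes Oct4, read 9.54 and 9.59 in EB_PSC and 12.58, 12.12 and 12.21 in ESC and was 6.69-fold lower (-2.74 ± 0.15, limma adjusted p = 4.59e-09). Nanog, a homeobox factor of the same network, read 9.41 and 9.61 in EB_PSC and 11.82, 11.75 and 11.67 in ESC, 4.71-fold lower (-2.24 ± 0.13, 8.64e-09). Sox2, the HMG-box partner of Oct4, read 11.41 and 11.23 in EB_PSC and 12.62, 12.72 and 12.61 in ESC, 2.51-fold lower (-1.33 ± 0.16, 1.36e-05). For all 3 genes the embryoid body arrays lay close together and below every ESC array. Their PSC means of 11.70, 11.43 and 12.39 lay between the means of the other groups. Utf1, a chromatin-bound stem cell factor gene, differed by -2.64, or -1.66 over all its probe sets, and Fgf4, the growth factor gene under Oct4 and Sox2, by -2.35. Tdgf1, the Nodal co-receptor gene, at -1.51, and Dppa5a at -0.96 kept some of the highest signals in EB_PSC (11.45 and 11.10, and 13.14 and 13.22). In bulk RNA, fewer cells of a type and less RNA per cell cannot be told apart.

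The naive state network, factors that mark the ground state of mouse stem cells, was lower for 18 of 19 genes, with a median of -2.16. Esrrb read 6.93 and 6.83 in EB_PSC and 11.25, 10.55 and 10.88 in ESC, 16.1-fold lower (limma adjusted p = 6.43e-10). Klf4, one of the reprogramming factors, read 9.10 and 8.92 in EB_PSC and 11.96, 11.86 and 12.06 in ESC, 7.73-fold lower (6.83e-10). Gbx2 read 3.78 and 3.88 in EB_PSC and 9.27, 8.36 and 8.30 in ESC and was the network gene whose embryoid body mean fell under the dim limit. The nuclear receptor genes Nr5a2 and Nr0b1 differed by -3.69 and -3.63, Klf2 by -3.19 and Tfcp2l1 by -3.02. The means over all probe sets were -2.09 for Nr5a2 and -1.07 for Tfcp2l1. The gene that did not pass was Dppa3, a maternal factor that protects imprints (7.50 and 8.21 in EB_PSC and 7.26, 7.76 and 7.20 in ESC, difference 0.45 ± 0.21, 0.104). With cyclic loess the network gave 18 lower and 1 higher.

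Signalling genes that hold stem cells undifferentiated were mostly lower. Of 12 genes of the LIF and Stat3 pathway, 9 were lower and 0 higher (median -1.54). The 3 that did not pass were the receptor genes Lifr (-0.01, limma adjusted p = 0.959) and Il6st (-0.22, 0.288) and the kinase gene Jak1 (0.10, 0.603). Downstream, the feedback inhibitor gene Socs3 read 8.79 and 9.09 in EB_PSC and 10.87, 11.32 and 11.22 in ESC, 4.59-fold lower (1.23e-07). The kinase gene Pim1 differed by -1.64 and Stat3 itself by -1.14. Of these genes the receptors and Jak1 gave no call, while Socs3, Pim1 and Stat3 were called lower.

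Of 11 Nodal pathway genes, 7 were lower and 2 higher. The Nodal antagonist gene Lefty1 read 8.42 and 8.24 in EB_PSC and 11.26, 10.47 and 10.93 in ESC, 5.89-fold lower (limma adjusted p = 1.25e-07), and its neighbour Lefty2 differed by -2.05, with no overlap of arrays for either. Nodal itself differed by -0.63. Cer1, a secreted antagonist of anterior visceral endoderm, was higher by at least 1.01, or 1.99 over both probe sets. Smad3, a signal transducer, was higher by 0.71 and lost its call when its probe sets were averaged (0.17, limma adjusted p = 0.315). Among 13 genes of ERK feedback, 7 were lower and 3 higher. The ETS factor genes Etv5 and Etv4 differed by -2.73 and -2.47, and the inhibitor gene Spry4 by -1.27. The 3 higher genes were the phosphatase genes Dusp4 (3.12 ± 0.16, limma adjusted p = 3.05e-09) and Dusp6 (0.84) and the early response gene Ier3 (1.13).

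Of 11 primed epiblast genes, which mark the next developmental step, 5 were higher and 1 lower, with no call for the other 5 (median 0.14), and 3 were higher by at least 1 log2 unit. Fgf5, the standard marker of the epiblast after implantation, read 8.99 and 8.07 in EB_PSC and 4.70, 5.10 and 4.83 in ESC, at least 3.65 ± 0.21 higher (limma adjusted p = 1.19e-08). Otx2, a head and epiblast homeobox gene, was 2.17-fold higher and Pou3f1 2.64-fold. By the mean over their probe sets Fgf5 differed by 2.19 and Pou3f1 by 0.39. The de novo methyltransferase genes Dnmt3a (0.02, 0.933) and Dnmt3b (0.14, 0.42) did not pass. Foxd3, a stem cell and neural crest factor, was the lower member (-0.98).

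Of 14 genes of the primitive streak and early mesoderm, 11 were higher and 1 lower (median 0.86, against -0.07 over all genes). Eomes, a T-box factor that starts mesendoderm, read 9.80 and 9.03 in EB_PSC and 6.28, 6.49 and 6.52 in ESC, 7.93-fold higher (limma adjusted p = 2.23e-08). Kdr, the receptor gene of early blood and vessel mesoderm, read 7.92 and 8.24 in EB_PSC and 5.57, 5.73 and 5.70 in ESC, 5.32-fold higher (7.33e-09). Both embryoid body arrays exceeded all ESC arrays for each gene. Lhx1, a homeobox gene of streak and lateral mesoderm, was higher by at least 3.12 (1.63 over its probe sets), Pdgfra, the receptor gene of paraxial and cardiac mesoderm, by 2.50 (1.25), and Mixl1 by 1.67. The low member was Mesp2, dim in both groups (-0.60). Mesp1, its partner at the head of the cardiac lineage, was higher by 0.63.

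Cardiac transcription factor genes numbered 22, of which 14 were higher and 2 lower (median 0.88). Tbx20 read 9.79 and 9.26 in EB_PSC and 3.37, 3.34 and 3.11 in ESC, at least 6.25 ± 0.18 higher (limma adjusted p = 2.44e-11). Hand2, a bHLH factor of the second heart field, read 9.63 and 9.58 in EB_PSC and 4.48, 4.35 and 4.68 in ESC, at least 5.11 ± 0.14 higher (1.62e-11). Myocd, the muscle co-activator of serum response factor, read 7.75 and 7.39 in EB_PSC and 4.21, 4.40 and 4.37 in ESC, at least 3.24 ± 0.16 higher (2.16e-09). For these 3 genes every ESC array was dim and every embryoid body array was not. Gata6 (at least 2.61), Foxc1 (at least 2.87), Isl1, the marker of second heart field progenitors (at least 2.31), and Mef2a (2.27) were higher too. Gata4, a zinc finger factor of heart and endoderm, read 6.38 and 6.19 in EB_PSC and 4.98, 4.99 and 5.20 in ESC, at least 1.22 ± 0.14 higher (5.73e-06). Nkx2-5, the homeobox factor most used to mark heart progenitors, read 6.33 and 6.57 in EB_PSC and 6.09, 6.23 and 6.41 in ESC, a difference of 0.20 ± 0.14 that did not pass (0.269), with overlapping groups. Tbx5 (0.15) and Gata5 (0.00) did not pass either. Tbx3, which stem cells also use, differed by -1.86 and Hopx by -0.42; the Hopx call was lost without any 1 of EB_PSC 1, EB_PSC 2, ESC 1 or ESC 3 (adjusted p 0.11 to 0.123) and with either further normalization (0.0752 and 0.402). The means over all probe sets were 1.97 for Hand2, 1.72 for Myocd, 1.55 for Gata6, 0.78 for Gata4 and -0.93 for Tbx3.

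Genes of heart muscle structure stood far above the stem cell level. Of 24 cardiac sarcomere genes, 19 were higher and 1 lower, 4 gave no call and the median was 2.59. The actin gene Actc1 read 11.01 and 11.32 in EB_PSC and 4.53, 4.86 and 4.84 in ESC, at least 6.42 ± 0.15 higher (limma adjusted p = 4.23e-12). Tnnt2, which encodes cardiac troponin T, read 8.61 and 9.05 in EB_PSC and 3.72, 3.71 and 3.62 in ESC, at least 5.14 ± 0.14 higher (1.62e-11). Neither gene was above the dim limit on any ESC array. The myosin light chain genes Myl7, of the atrium, and Myl2, of the ventricle, read 10.23 and 10.96, and 8.67 and 10.24, in EB_PSC against 5.92, 6.07 and 6.22, and 4.66, 4.88 and 4.73, in ESC. Their differences were 4.53 ± 0.19 (5.53e-10) and at least 4.70 ± 0.31 (3.74e-08). The heavy chain genes Myh6 and Myh7 differed by 3.52 ± 0.28 (2.77e-07; 1.74 over both Myh6 probe sets) and at least 3.76 ± 0.17 (8.35e-10). Nexn, a filament protein gene of the Z-disc, was higher by at least 4.66, the slow troponin genes Tnnc1 and Tnni1 by at least 4.29 and by 3.99, tropomyosin gene Tpm1 by 3.69 and titin gene Ttn by at least 2.48.

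The remaining sarcomere genes gave no call or a lower one. Tnni3, the adult cardiac troponin I gene, read 5.50 and 6.34 in EB_PSC and 5.58, 5.70 and 5.73 in ESC and did not pass (limma adjusted p = 0.351). Actn2 (0.31), Myoz2 (0.03) and Tcap (-0.38), all Z-disc genes, did not pass either. Des, the muscle intermediate filament gene, was the lower member (-0.51 ± 0.15, 0.0144), a call lost without EB_PSC 2 (-0.38) or ESC 3 (-0.47) and with cyclic loess (-0.38). EB_PSC 2 read above EB_PSC 1 for 20 of the 24 genes, with a median gap of 0.40.

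Calcium handling and conduction genes were fewer: 7 of 15 were higher and 0 lower. Slc8a1, the sodium-calcium exchanger gene, was higher by at least 2.20 (0.95 over its probe sets) and Pln, which encodes the calcium pump inhibitor phospholamban, by 1.48 (0.79 without EB_PSC 2). Gja1, the connexin 43 gene, read 13.14 and 13.17 in EB_PSC and 11.26, 12.07 and 11.36 in ESC, 3.01-fold higher (limma adjusted p = 1.46e-05; 0.75 log2 units on a probe set not of the _x_at or _s_at kind). Ryr2, the calcium release channel gene, was dim in both groups (5.15 and 5.71 in EB_PSC and 4.35, 4.78 and 4.15 in ESC), though its difference passed (1.00, 0.000956; 0.49 over its probe sets). The pump gene Atp2a2 (-0.12) and the calcium channel gene Cacna1c (0.24) did not pass. Of 9 cardiac stress genes, which fetal and loaded hearts express, 8 were higher (median 2.99). The natriuretic peptide gene Nppa read 6.59 and 7.48 in EB_PSC and 3.74, 4.21 and 4.19 in ESC, at least 2.99 ± 0.22 higher (1.44e-07), and Nppb was higher by at least 3.84 ± 0.16 (5.7e-10). Acta1, the skeletal actin gene that fetal heart shares, was 15.2-fold higher, Fhl2, a LIM protein gene, 7.31-fold. Xirp1, dim in both groups, was the exception (-0.40, 0.034), a call lost without EB_PSC 1 and without each ESC array in turn (adjusted p 0.0521 to 0.27).

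**Figure D2:**
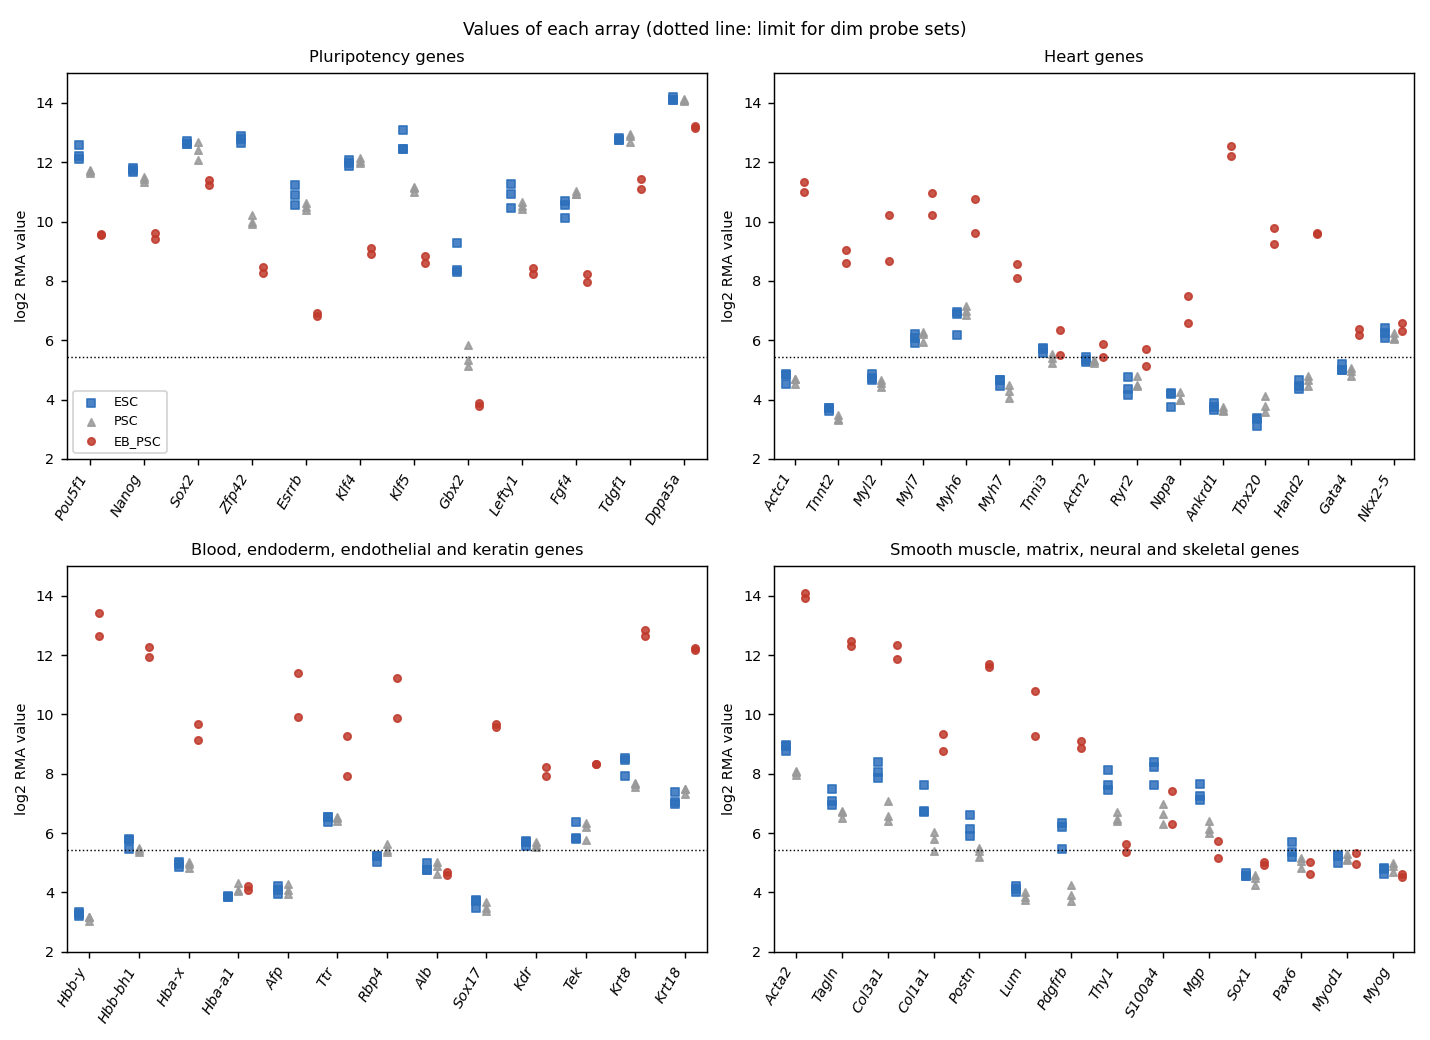
Log2 RMA value of each array for 12 pluripotency genes and for genes of heart, blood, endoderm, vessels, epithelium, mesenchyme, nerve and skeletal muscle. Squares are the 3 ESC arrays, triangles the 3 PSC arrays and circles the 2 EB_PSC arrays, and the dotted line is the dim limit of 5.44. Tnnt2 and Actc1 lie below the line in ESC and above 8 in EB_PSC, while Nkx2-5, Tnni3, Myod1 and Myog lie close together in all groups.

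Muscle actin and myosin promoters are known to be read through the CArG box, the binding site of serum response factor, and stem cell promoters through a joint Oct and Sox element. Promoter sequences of RefSeq (assembly GRCm38.p6), the 250 bases before the annotated start, were searched on both strands. A CArG box stood in 482 of 32851 promoters (1.47%), in those of 5 of 21 cardiac sarcomere genes with a promoter (Actc1, Ldb3, Myl3, Myl7 and Myom1), and in those of 4 of 7 cardiac stress genes (Acta1, Fhl1, Fhl2 and Myl9). Among smooth muscle genes it stood in 0 of 9. Sites outside the 250 bases were not searched, and near matches such as ccctatatgg in the Actc1 promoter below were not counted. The joint Oct and Sox element stood in 11 promoters (0.0335%), in that of Nanog among 12 core pluripotency genes and in 0 of 11 naive genes. A match is a description of these letters and was not tested as a binding site. The promoters of 3 muscle genes that were called higher, and of Nanog, which was called lower, are given 5′ to 3′ on the strand of the gene, with the motif in capitals.
Actc1, chr2:114052876-114053125, minus strand: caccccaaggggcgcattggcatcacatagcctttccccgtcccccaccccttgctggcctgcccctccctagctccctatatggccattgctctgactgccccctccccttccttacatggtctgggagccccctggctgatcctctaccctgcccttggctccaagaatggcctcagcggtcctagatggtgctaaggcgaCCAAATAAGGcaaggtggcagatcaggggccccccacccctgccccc
Myl7, chr11:5898783-5899032, minus strand: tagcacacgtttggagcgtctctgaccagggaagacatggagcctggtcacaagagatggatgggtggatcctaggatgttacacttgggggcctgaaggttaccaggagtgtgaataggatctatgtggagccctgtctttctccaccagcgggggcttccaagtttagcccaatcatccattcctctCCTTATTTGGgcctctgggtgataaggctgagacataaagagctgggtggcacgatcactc
Acta1, chr8:123894776-123895025, minus strand: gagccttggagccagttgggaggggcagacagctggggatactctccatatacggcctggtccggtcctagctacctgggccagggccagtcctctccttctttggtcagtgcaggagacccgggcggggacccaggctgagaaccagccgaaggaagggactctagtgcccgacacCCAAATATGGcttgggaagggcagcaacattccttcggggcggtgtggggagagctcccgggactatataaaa
Nanog, chr6:122707239-122707488, plus strand: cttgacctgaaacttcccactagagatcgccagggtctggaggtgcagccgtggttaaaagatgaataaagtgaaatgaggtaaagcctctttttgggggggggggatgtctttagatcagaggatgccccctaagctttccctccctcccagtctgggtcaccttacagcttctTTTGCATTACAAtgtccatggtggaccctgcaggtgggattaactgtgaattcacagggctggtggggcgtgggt
The motif began 47 bases before the start in Actc1, 61 in Myl7, 73 in Acta1 and 75 in Nanog. In EB_PSC, Actc1 read 11.01 and 11.32, Myl7 10.23 and 10.96 and Acta1 9.16 and 9.86. Nanog, with the joint element, read 9.41 and 9.61.

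Smooth muscle genes were higher for 6 of 12 and lower for 2. The lower members, Smtn (-0.65) and Des (-0.51), both lost their calls with cyclic loess (7 higher, 0 lower) and without EB_PSC 2, and 1 of them did without EB_PSC 1, ESC 1 or ESC 3. Acta2, the smooth muscle actin gene, read 13.94 and 14.08 in EB_PSC and 8.98, 8.76 and 8.94 in ESC and Tagln, which encodes transgelin, 12.49 and 12.29 in EB_PSC and 7.50, 6.93 and 7.07 in ESC. The differences were 5.12 ± 0.13 (limma adjusted p = 5.98e-12) and 5.22 ± 0.16 (3.94e-11). All embryoid body values of these 2 genes were above 12 and all ESC values below 9. The Acta2 value comes from a probe set of the _s_at kind. Its other 2 probe sets were dim in both groups and differed by 1.06 and, for the brighter of them, by 0.38 (limma adjusted p = 0.0588). The mean over all 3 was 2.18. Cald1, the caldesmon gene, differed by 3.97 (2.35 over its probe sets) and Cnn1, the calponin gene, by at least 2.82. Myh11, the myosin of mature smooth muscle, was dim in both groups (-0.21) and did not pass. Of 17 skeletal muscle genes, 1 was higher (Tnnt3, 0.46, a call lost without EB_PSC 1) and 2 lower (Actn3, -2.57, a lower bound, and Myh3, -0.95). In both groups 13 were dim. The lineage factors Myod1, Myog and Myf5 were dim in both groups and differed by -0.01, -0.18 and 0.07, none past the test.

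Embryonic blood and vessel genes were present. Of 15 erythroid and globin genes, 10 were higher and 0 lower, and 5 were called higher after a filter on dim probe sets. Hbb-bh1, a globin gene of primitive red cells, read 11.94 and 12.26 in EB_PSC and 5.47, 5.80 and 5.77 in ESC, 85.5-fold higher (limma adjusted p = 4.23e-12), and Hba-x, the embryonic alpha-like gene, 9.15 and 9.68 in EB_PSC and 5.02, 4.96 and 4.85 in ESC, at least 4.47 ± 0.16 higher (9.45e-11). The adult alpha globin gene Hba-a1 read 4.22 and 4.08 in EB_PSC and 3.84, 3.85 and 3.88 in ESC and did not pass (0.0846). Globin signal was thus high for 3 embryonic genes on both embryoid body arrays and dim for the adult gene on all 5 arrays. Related globin transcripts can share probes. Lmo2, a factor of early blood, was higher by 1.28 and Tal1 by at least 1.10, while Gata1 (0.01) and Klf1 (-0.21) did not pass. Among 19 endothelial genes, 10 were higher and 4 lower, beside 19.3% and 25.6% over all genes. The lower count was thus under its share of all genes. The angiopoietin receptor gene Tek read 8.33 and 8.33 in EB_PSC and 6.37, 5.85 and 5.80 in ESC, 5.01-fold higher (3.77e-07), and the VEGF receptor gene Flt1 was 3.55-fold higher. Cdh5, the endothelial cadherin gene, differed by at least 1.78 and Emcn, an endothelial sialomucin gene, by at least 2.13. On the other side stood Vwf (-1.68), Pecam1 (-1.08), which stem cells also express, Nos3 (-0.75) and Eng (-0.42), the last a call lost without EB_PSC 1, ESC 1 or ESC 3 (adjusted p 0.0687 to 0.433), with either further normalization and over its probe sets (-0.06).

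Macrophage genes set the 2 embryoid body arrays apart. Of 19 blood cell and macrophage genes, 10 were called higher, but 4 without EB_PSC 2 and 14 without EB_PSC 1. EB_PSC 2 read above EB_PSC 1 for 17 of the 19. Ptprc, which encodes the leukocyte antigen CD45, read 4.11 and 6.57 in EB_PSC and 3.21, 3.42 and 3.26 in ESC (difference 2.05 ± 0.46 with both group means dim, limma adjusted p = 0.00217; 0.81 without EB_PSC 2). Tyrobp, an adaptor of myeloid receptors, read 5.38 and 7.78 in EB_PSC and 4.56, 5.00 and 4.61 in ESC (at least 1.86; 0.66 without EB_PSC 2). In both genes EB_PSC 2 was far above every other array and EB_PSC 1 only a little above ESC. Mrc1, the mannose receptor gene of tissue macrophages, read alike in the 2 embryoid body arrays (7.10 and 7.01 in EB_PSC and 5.20, 4.98 and 5.37 in ESC) and at least 1.87 higher (1.08e-07). Cd68 was lower (-0.83). Over all 18194 genes, 17 stood at least 2 log2 units higher in EB_PSC 2 than in EB_PSC 1 and 1, the neuronal membrane gene Slitrk4, the other way, against a median gap of 0.162. Besides macrophage genes such as Ccl9 and Ctss, the 17 took in the hedgehog ligand gene Shh (6.61 and 8.70).

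**Figure D3:**
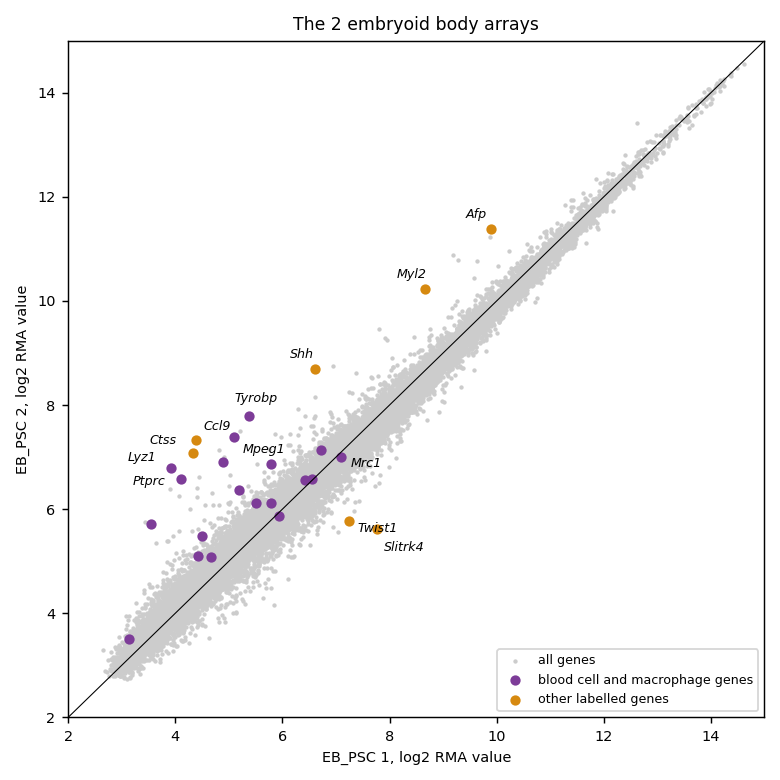
Log2 RMA value of all 18194 genes in EB_PSC 1 (horizontal) against EB_PSC 2 (vertical), with the line of equal values. Blood cell and macrophage genes (purple) lie above the line for 17 of 19, and other labelled genes are orange. Lyz1 reads 3.92 and 6.79 and Ptprc 4.11 and 6.57 on the 2 arrays.

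Most of the connective tissue genes that were called were higher in embryoid bodies, and ESC were grown on fibroblast feeders. Of 23 genes of fibrillar collagens and mesenchymal matrix, 13 were higher and 5 lower (median 1.64). Col3a1, a fibrillar collagen gene, read 11.86 and 12.34 in EB_PSC and 8.06, 8.39 and 7.84 in ESC, 16-fold higher (limma adjusted p = 5.5e-09). Postn, the periostin gene of heart valves and matrix, read 11.69 and 11.59 in EB_PSC and 6.13, 6.62 and 5.90 in ESC, 42.9-fold higher (8.08e-11). Both genes were above ESC on either embryoid body array. Col1a1 was 4.09-fold higher, Col5a2 15.1-fold, and Vcan, the versican gene, 15.2-fold (1.33 over its 8 probe sets). The lower members were Thy1, a fibroblast surface gene, Mgp (-1.91, a lower bound), Bgn (-0.74), Fbln1 (-0.65, or -0.22 and not past the test over its probe sets) and Col6a1 (-0.46). Thy1 read 5.64 and 5.38 in EB_PSC and 8.14, 7.62 and 7.47 in ESC (-2.23 ± 0.18, limma adjusted p = 3.5e-07).

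Among 17 fibroblast and feeder markers, 8 were higher and 3 lower. Pdgfrb, a receptor gene of fibroblasts and pericytes, read 9.11 and 8.87 in EB_PSC and 6.34, 5.48 and 6.20 in ESC, 7.9-fold higher (2.98 ± 0.23, limma adjusted p = 1.67e-07; 1.88 over both probe sets). Cxcl12, a stromal chemokine gene, was higher by at least 3.78 (2.00) and Twist1 by at least 2.23. Lower were Thy1, Mmp3 (-1.37, a lower bound) and S100a4 (-1.23), the last not past the test without EB_PSC 1 (-0.67). The 6 fibroblast markers had mean signals of 8.12 and 8.16 in EB_PSC, 6.93 to 7.38 in ESC and 5.55 to 5.94 in PSC, and all 6 were above the dim limit in EB_PSC and in ESC. What feeder RNA contributed to the ESC values was not tested.

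Of 17 genes of basement membrane and parietal endoderm, 13 were higher and 1 lower (median 1.43; 3 lower without EB_PSC 1 or ESC 2). The collagen IV genes Col4a1 and Col4a2, which lie side by side, read 11.95 and 11.99 in EB_PSC and 8.10, 7.82 and 7.87 in ESC, and 9.89 and 10.10 in EB_PSC and 6.38, 6.23 and 6.45 in ESC. Their differences of 4.04 ± 0.13 (limma adjusted p = 6.27e-11) and 3.65 ± 0.15 (3.84e-10) were of like size, with no overlap. Dab2, an endocytic adaptor of primitive endoderm, was 13.8-fold higher (2.45 over its probe sets), Sparc 3.52-fold and Plat, a plasminogen activator gene, 6.33-fold (1.38). Lamc1, a laminin chain gene, was lower (-1.24), whereas Lamb1 was higher (1.43).

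Of 25 genes of visceral endoderm and fetal plasma proteins, 14 were higher, 2 lower and 9 without a call. Rbp4, the retinol carrier gene, read 9.88 and 11.23 in EB_PSC and 5.03, 5.22 and 5.24 in ESC, at least 5.39 ± 0.27 higher (limma adjusted p = 2.93e-09). Ttr, the thyroxine carrier gene, read 7.92 and 9.28 in EB_PSC and 6.56, 6.39 and 6.53 in ESC, 4.31-fold higher (2.24e-05) on its brightest probe set, and its other 3 probe sets differed by 5.47 to 7.80 (mean over all 4: 5.72). For Rbp4, Ttr and Afp, EB_PSC 2 was the higher of the 2 embryoid body arrays. The forkhead factor genes Foxa1 and Foxa2, which open endoderm enhancers, were higher by at least 4.54 and 2.63. Ctsh, a cathepsin gene, differed by at least 5.05 and the trypsin inhibitor gene Spink1 by 3.38. Alb, the serum albumin gene, read 4.69 and 4.59 in EB_PSC and 4.76, 4.99 and 4.77 in ESC and did not pass (difference -0.20, 0.295), and neither did Hnf4a (-0.17), Fga (-0.02) or Fgg (-0.06). The plasma protein genes Ahsg (-0.69, 0.00106) and Apoa4 (-0.44) were lower and dim in both groups, and Apoa4 lost its call without EB_PSC 1, EB_PSC 2 or ESC 3 (adjusted p 0.0612 to 0.107).

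Keratin and epithelial genes split evenly, with 8 higher and 8 lower of 25 (9 and 6 with cyclic loess). The simple-epithelium keratin genes Krt8 and Krt18, which form filaments together, read 12.64 and 12.85 in EB_PSC and 8.47, 7.93 and 8.52 in ESC, and 12.18 and 12.24 in EB_PSC and 7.39, 7.04 and 6.98 in ESC. They were 21.7-fold and 33.8-fold higher (limma adjusted p = 2.08e-10 and 1.62e-11). Krt19, Krt7 and Krt20 were higher by 2.67, at least 2.80 and at least 2.91, and the desmosome gene Dsp by 2.96. The lower members took in Epcam (-1.48), Grhl2 (-1.03) and Cdh1, the E-cadherin gene (-0.40). Krt17 was the lowest (-2.30, a lower bound). The squamous genes Krt5 (-0.02), Krt14 (0.04) and Trp63 (0.00) did not pass.

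Of 25 neural genes, 8 were higher and 6 lower, with a median of 0.01, and 5 were higher without EB_PSC 1. Over all genes 19.3% were higher and 25.6% lower, so the lower count was near the share of all genes. By at least 1 log2 unit, 4 were higher and 1 lower. Ncam1, an adhesion gene of nerve and heart, read 10.22 and 9.94 in EB_PSC and 7.06, 6.96 and 6.87 in ESC, 8.66-fold higher (limma adjusted p = 1.54e-09; 0.79 over its 7 probe sets). Gap43, a growth cone gene, was 3.84-fold higher. Olig1, a factor of the oligodendrocyte lineage, was at least 2.84 higher than in ESC, while PSC already stood at 9.69 against 7.18 and 6.41 in EB_PSC. The early neural factors Sox1 and Pax6 were dim in both groups and differed by 0.39 ± 0.13 (0.026) and -0.61 ± 0.17 (0.0113). The Sox1 call was lost without EB_PSC 1, EB_PSC 2, ESC 1 or ESC 3 (adjusted p 0.0557 to 0.131) and that of Pax6 without EB_PSC 1 (0.153). With the mean of their probe sets neither passed (0.549 and 0.151). The neuronal tubulin gene Tubb3 (-0.50) and Dcx (-0.13) did not pass.

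For other lineages the counts stand beside 19.3% higher and 25.6% lower over all genes. Hox genes lay under both of these shares. Of 15 cartilage and bone genes 5 were higher and 3 lower (1 lower without EB_PSC 2); Col11a1 was at least 3.66 higher and Sox9, the cartilage master factor, 2.41-fold (0.78 over its probe sets). Of 32 Hox genes, which set position along the body axis, 4 were higher and 3 lower, and 22 were dim in both groups. The lower count was 0 without EB_PSC 2 and 1 without EB_PSC 1 or ESC 2, and Hoxc8 among the higher members fell from 0.66 to 0.17 without EB_PSC 2. Of the 7 calls, those of Hoxc8, Hoxa5, Hoxb13, Hoxc6 and Hoxa4 were each lost without at least 1 of the arrays. Hoxb2 (6.05 and 6.27 in EB_PSC and 4.51, 4.60 and 4.76 in ESC) was the Hox gene that differed by more than 1 log2 unit. Of 15 trophoblast genes 7 were higher and 2 lower, with Plac1, a placental gene of the X chromosome, clear of the ESC arrays (at least 4.94 ± 0.18, limma adjusted p = 1.04e-10). The placental genes Tpbpa, Psg17 and Ctsq were dim in both groups and did not pass (0.03, -0.14 and 0.05). Of 18 germ cell genes, 11 were lower and 1 higher (median -0.93), among them the piRNA factor gene Tdrd12 (-2.87), the RNA helicase gene Ddx4 (-1.94) and the receptor gene Kit (-1.84). The higher member was Kitl, the ligand of that receptor (11.11 and 10.93 in EB_PSC and 6.34, 6.16 and 5.87 in ESC; 4.89 ± 0.16, 5.71e-11; 2.44 over its probe sets).

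Imprinted genes are read from 1 parental copy, and EB_PSC and PSC carry no paternal genome. Of 29 genes listed as paternally expressed, 12 were lower in embryoid bodies, 6 higher and 11 without a call (9 lower and 8 higher with cyclic loess). Over all genes 25.6% were lower and 19.3% higher, so the higher count was near the share of all genes. The list holds Zim1, called higher, which is known as maternally expressed in the mouse. Some genes of the list stood in EB_PSC where they stood in PSC. Snhg14, the host RNA of small nucleolar RNAs next to Snrpn, read 4.27 and 5.14 in EB_PSC and 9.75, 9.87 and 9.79 in ESC, with a PSC mean of 4.54 (difference -5.10 ± 0.22, limma adjusted p = 6.43e-10, a lower bound). Peg10, a retrotransposon-derived placental gene, read 4.16 and 4.15 in EB_PSC and 8.13, 7.46 and 7.69 in ESC, with a PSC mean of 4.13 (-3.61, a lower bound). Kcnq1ot1, the antisense RNA that silences its domain, differed by -2.30, a lower bound (-0.95 over its probe sets), with a PSC mean of 5.04. These 3 genes were dim in every EB_PSC and PSC array and above the limit in every ESC array.

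Other paternally expressed genes stood between PSC and ESC in the embryoid bodies. Peg3, a zinc finger gene, read 8.94 and 9.09 in EB_PSC and 10.18, 10.31 and 10.39 in ESC, against a PSC mean of 5.71, and was 2.43-fold lower than in ESC (-1.28 ± 0.15, limma adjusted p = 1.09e-05). Mest, which encodes a hydrolase-like protein of mesoderm, read 8.68 and 8.94 in EB_PSC and 11.10, 10.69 and 10.87 in ESC, against 6.41 in PSC (4.23-fold lower, 2.91e-06). Impact, a translation regulator gene, read 7.67 and 7.76 in EB_PSC, 9.94, 10.56 and 10.30 in ESC and 6.84 in PSC (-2.55; -0.91 over its probe sets, of which 1 ran the opposite way). For these 3 genes neither embryoid body array reached an ESC array. Snrpn, a splicing protein gene, read 5.65 and 6.13 in EB_PSC and 6.22, 6.33 and 6.37 in ESC (-0.41 ± 0.15, 0.042). This call was lost without EB_PSC 1, ESC 2 or ESC 3 (limma adjusted p 0.0724 to 0.486) and with cyclic loess (0.0937). The value rests on the sole probe set that names Snrpn alone, whose group means of 5.89 and 6.30 lay near the dim limit. Probe sets that name several genes were not used. Dlk1, a Notch-related ligand gene, did not pass (0.01, 0.978).

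A further set was higher than in ESC. Igf2, the fetal growth factor, read 12.39 and 12.81 in EB_PSC and 8.27, 8.10 and 7.87 in ESC, against a PSC mean of 7.22, and was 23-fold higher (4.52 ± 0.16, limma adjusted p = 8.73e-11). Its other probe set was called higher too (1.90). Slc38a4, an amino acid transporter gene, read 11.47 and 11.09 in EB_PSC and 8.23, 8.39 and 8.51 in ESC, against 10.32 in PSC (7.48-fold higher, 4.16e-09). Plagl1, a zinc finger gene, was higher by 1.01 ± 0.23 (0.00233) on a probe set of the _x_at kind. On the brighter of its other probe sets it differed by -0.12, and without EB_PSC 2 it did not pass (0.64, 0.0547). Igf2 signal in EB_PSC was thus above every array of the biparental stem cells, although the gene is classed as paternally expressed.

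Of 29 maternally expressed genes, 15 were higher, 4 lower and 10 without a call (median 0.40). Grb10, a growth-restraining adaptor, read 12.67 and 12.63 in EB_PSC and 8.70, 8.24 and 8.46 in ESC, against a PSC mean of 11.10, and was 18.2-fold higher (4.19 ± 0.14, limma adjusted p = 7.27e-11). Cdkn1c, which encodes the cell cycle inhibitor p57, read 10.65 and 10.85 in EB_PSC and 7.52, 6.57 and 7.06 in ESC, against 7.79 in PSC (13-fold, 8.73e-09). Igf2r, the receptor gene that clears Igf2, read 10.62 and 10.71 in EB_PSC and 8.20, 7.31 and 7.87 in ESC, against 8.12 in PSC (7.31-fold, 1.38e-07). Each embryoid body array was above each ESC array for all 3 genes. Asb4 stood at 10.05 and 9.60 in EB_PSC and was dim in ESC and PSC (3.35, 3.63 and 3.68 in ESC and a PSC mean of 3.61). Meg3, a long noncoding RNA, was 3.51-fold higher, with 9 of its 11 probe sets called the same way and a mean of 0.93. Gnas, a G protein subunit gene, was higher by 1.59 and Phlda2, which restrains the placenta, by 0.75. Cobl, an actin nucleator gene next to Grb10 (-3.62; -1.95 over both probe sets), and Dhcr7, a cholesterol synthesis gene (-1.94), led the lower members, ahead of Nap1l4 (-0.45) and Tssc4 (-0.41). The lower count was 2 with cyclic loess, without EB_PSC 2 and without ESC 1.

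**Figure D4:**
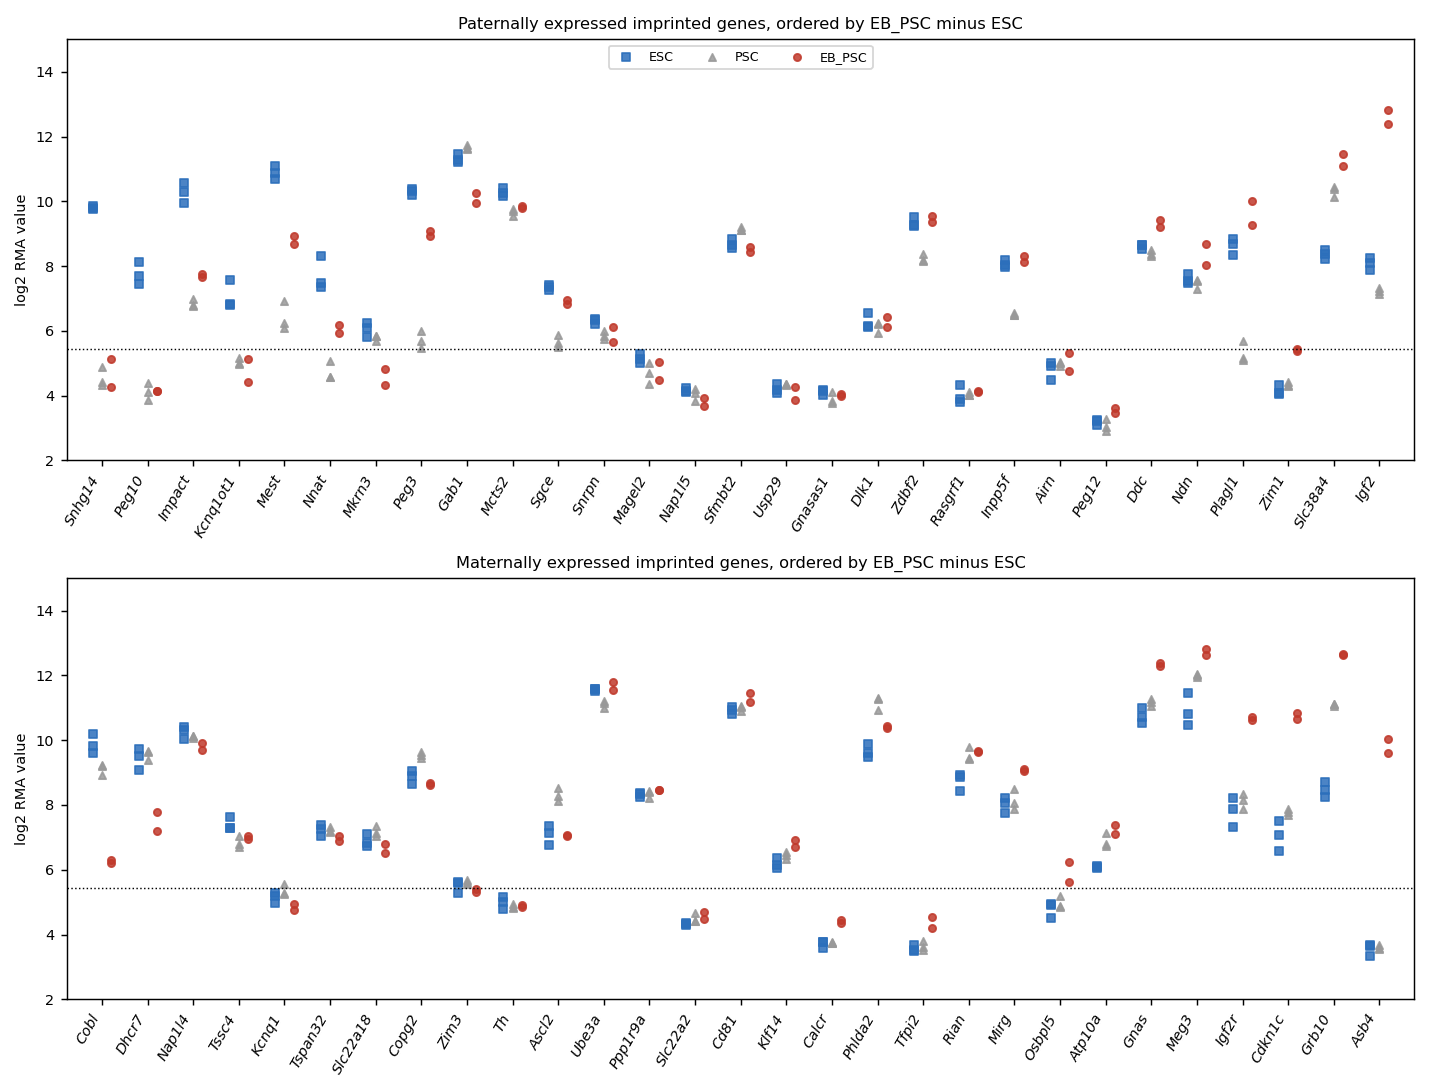
Log2 RMA value of each array for 29 imprinted genes listed as paternally expressed (upper panel) and 29 as maternally expressed (lower panel), ordered by the difference between EB_PSC and ESC. Zim1, in the upper panel, is known as maternally expressed in the mouse. Squares are ESC, triangles PSC and circles EB_PSC, and the dotted line is the dim limit. Snhg14 and Peg10 are low in PSC and EB_PSC alike, Peg3 and Mest lie between, and Igf2, Grb10, Cdkn1c and Asb4 are highest in EB_PSC.

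The sex chromosomes differed between the cultures. Of 7 Y-linked genes, 4 were lower in embryoid bodies and 0 higher. Eif2s3y, a translation initiation factor gene, read 5.07 and 5.23 in EB_PSC and 10.01, 10.74 and 10.19 in ESC, with a PSC mean of 4.74 (difference -5.16 ± 0.19, limma adjusted p = 1.48e-10, a lower bound). Uty, a histone demethylase family gene, read 3.87 and 3.85 in EB_PSC and 7.12, 7.22 and 7.85 in ESC (-3.54, a lower bound, and -1.80 over its probe sets). All EB_PSC and PSC arrays were dim for both, and no R1 array was. The X-linked counterpart of the first, Eif2s3x, also stood lower (10.37 and 10.29 in EB_PSC and 11.45, 11.22 and 11.44 in ESC). It was 2.05-fold lower (limma adjusted p = 4.01e-05) on an _x_at probe set, a kind that can take up related transcripts. Its other probe sets differed by -0.93, which was called, and by -0.37, which was not (limma adjusted p = 0.05002). Of 12 genes of X inactivation and X escape, 3 were higher and 4 lower (4 and 2 with cyclic loess, and 2 lower without EB_PSC 2). Xist, the noncoding RNA of X inactivation, differed by -2.24 ± 0.21 (1.41e-06) on an _s_at probe set, whereas its other 2 probe sets were dim in both groups and differed by -0.05 and -0.06.

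The X chromosome had a larger share of higher genes than the genome at large; no test of this difference was run. Among 11714 genes whose mean over the 5 arrays was at or above the dim limit, 24.2% were called higher and 36.2% lower, with a median of -0.14. On the X, 168 of 372 such genes (45.2%) were higher and 91 (24.5%) lower, with a median of 0.25. The same genes had a median of 0.04 between PSC and ESC, a comparison that shares the ESC arrays. Chromosome 12 came next, with 40.1% of 416 genes higher and a median of 0.13, beside 0.18 between PSC and ESC. Chromosome 17 lay at the other end, with 15.5% of 594 genes higher, 44.1% lower and a median of -0.30. Cyclic loess moved the median over all such genes from -0.14 to 0.03, that of the X to 0.40 (50.8% higher, 18.3% lower), of chromosome 12 to 0.35 and of chromosome 17 to -0.11 (21.5% higher, 35.0% lower). Without any 1 array the medians were 0.20 to 0.28 on the X, 0.14 to 0.17 on chromosome 12 and -0.34 to -0.29 on chromosome 17.

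**Figure D5:**
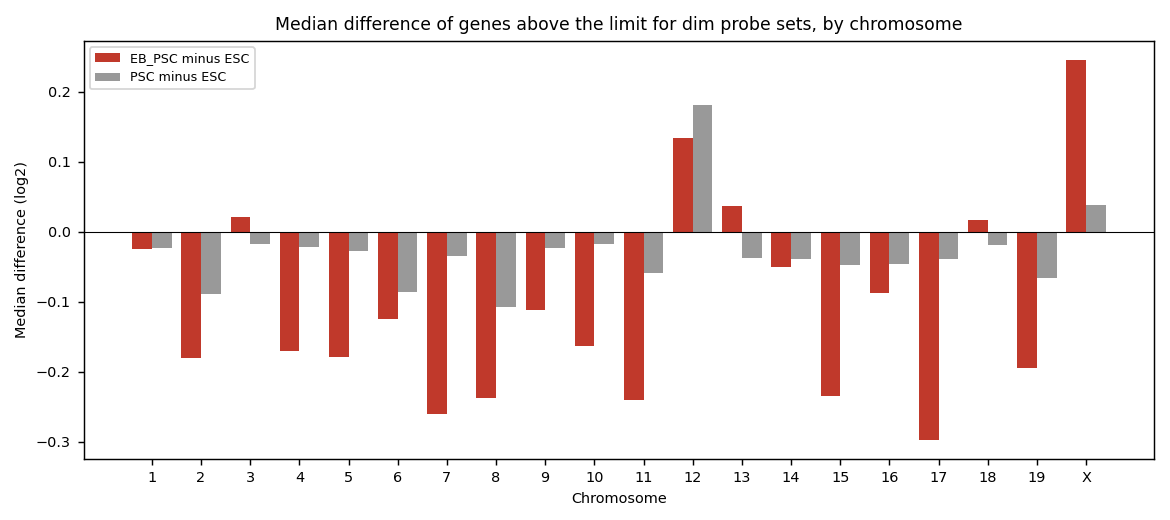
Median log2 difference by chromosome of genes whose mean over the 5 arrays is at or above the dim limit. Red bars are EB_PSC minus ESC and grey bars PSC minus ESC, which share the ESC arrays. The X (0.25) has the highest red bar and chromosome 17 (-0.30) the lowest, while chromosome 12 has the highest grey bar (0.18).

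Chromatin regulators were mostly lower. Of 14 genes of DNA methylation and imprint maintenance, 10 were lower and 0 higher (median -0.96; 9 lower and 2 higher with cyclic loess). Dnmt3l, the co-factor of de novo methylation, read 9.42 and 9.08 in EB_PSC and 11.78, 11.26 and 11.50 in ESC, 4.81-fold lower (limma adjusted p = 1.64e-07). The demethylating enzyme gene Tet1 was 4.48-fold lower, Uhrf1, which guides maintenance methylation, 4.21-fold, and the imprint guard Zfp57 differed by -1.64. Of 18 Polycomb genes, 11 were lower and 2 higher. The stem cell subunit genes Cbx7 and Phc1 differed by -2.36 (-1.06 over its probe sets) and -2.34, Jarid2 by -1.90 and the methyltransferase gene Ezh2 by -1.06. Bmi1, a ring finger subunit of differentiated cells, was 5.25-fold higher (8.61 and 8.46 in EB_PSC and 6.05, 6.06 and 6.31 in ESC; 6.37e-09). Phc2 was the other higher subunit (1.52), and it did not pass without its _x_at probe set (0.35, 0.0984). Of 19 BAF remodelling subunits, 10 were lower and 1 higher, or 6 lower with cyclic loess and 6 without EB_PSC 2. The ATPase gene Smarca4 was 2.59-fold lower, and Smarce1 was the higher member (1.08; 0.60 over its probe sets).

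Proliferation genes lay lower in embryoid bodies but nearly all stayed above the dim limit. Of 30 DNA replication genes, 22 were lower and 1 higher (median -0.83), and 29 were above the dim limit in both groups. Lig1, a DNA ligase gene, was 3.96-fold lower (limma adjusted p = 2.12e-07) and Mcm3, of the replicative helicase, 3.39-fold (7.6e-07). Mcm5 differed by -0.67 on an _x_at probe set and by -1.25 over all 3. Orc6 was the higher member (0.45), not past the test without EB_PSC 1 (0.31). Of 25 mitosis genes 21 were lower and 0 higher (median -0.98). The checkpoint kinase gene Bub1b read 8.99 and 8.89 in EB_PSC and 11.72, 11.20 and 11.59 in ESC, 5.92-fold lower (1.18e-08; -1.64 over its probe sets), and Plk1, a mitotic kinase gene, read 8.65 and 8.30 in EB_PSC and 10.61, 9.99 and 10.13 in ESC. For 24 of the 25 EB_PSC 1 read above EB_PSC 2, with a median gap of 0.23. G1 genes split, with 8 of 23 higher and 8 lower: the inhibitor genes Cdkn1c, Cdkn2b (3.10), Cdkn1a (0.61) and Cdkn1b (0.51) and the cyclin gene Ccnd2 (2.36) were higher. Ccnd3 (-1.90; -0.55 over its probe sets), Ccne1 (-1.46; -2.91 without _x_at probe sets) and E2f1 (-1.29) were lower. Ccnd1 did not pass (-0.01, 0.962), except over the mean of its probe sets (-0.41, 0.00459).

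Growth factor pathways of the embryo were among the higher groups. Of 15 Igf pathway genes 9 were higher and 0 lower (median 1.46). Besides Igf2 and Igf2r, the docking protein gene Irs1 read 10.03 and 9.88 in EB_PSC and 5.61, 5.47 and 5.46 in ESC, 21.8-fold higher (limma adjusted p = 1.62e-11). Igfbp4, a binding protein gene, was 9.24-fold higher, Igf1 at least 2.24 and the receptor gene Igf1r 1.46 log2 units. Irs2 (-0.25) and Igfbp2 (-0.36) did not pass. Of 10 genes around Lin28 and let-7, 2 were higher and 4 lower. Hmga2, a chromatin protein that let-7 restrains, read 12.48 and 12.40 in EB_PSC and 8.58, 8.31 and 7.92 in ESC, 18-fold higher (5.61e-10), and Igf2bp3 was higher by 0.83 (0.55 over its probe sets). Lin28a differed by -0.93, or -1.83 over both probe sets, and Mycn by -2.00 (-1.01).

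Of 18 BMP and Id genes, 11 were higher and 1 lower (median 1.07). The ligand gene Bmp2 read 9.23 and 8.57 in EB_PSC and 3.19, 3.32 and 3.30 in ESC, at least 5.63 ± 0.18 higher (limma adjusted p = 5.59e-11). Bmp4, its relative that also sustains stem cells, read 9.13 and 8.74 in EB_PSC and 9.73, 9.37 and 9.30 in ESC and differed by -0.53 ± 0.19 (0.036), a call lost without EB_PSC 2 (-0.33) or ESC 1 (-0.39) and with either further normalization (-0.44 and -0.27). The antagonist gene Fst was 9.5-fold higher, the target gene Id2 6.78-fold (1.73 over its probe sets) and Id3 3.94-fold, and the inhibitory Smad gene Smad6 4.51-fold. The receptor gene Bmpr2 was higher by 2.22 (0.99 over its probe sets). Of 22 Wnt genes, 10 were higher and 1 lower. The noncanonical ligand gene Wnt5a was at least 3.31 higher (1.48 over its probe sets), the antagonist gene Dkk1 at least 3.56 ± 0.17 (1.18e-09) and the receptor gene Fzd1 at least 3.21 (1.95). The canonical ligand genes Wnt3 (-0.05) and Wnt3a (-0.23) did not pass. Axin2, a target of beta-catenin, was the lower member (-0.46, 0.0109), a call lost without EB_PSC 1 (0.0595) and with cyclic loess (0.104).

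Metabolic genes differed by pathway. Of 22 genes of glycolysis and glucose uptake, 14 were lower and 0 higher (median -1.04; 14 lower and 2 higher with cyclic loess). Pkm, which encodes pyruvate kinase, read 11.33 and 11.20 in EB_PSC and 13.54, 12.92 and 13.11 in ESC, 3.79-fold lower (limma adjusted p = 4.48e-07). Pfkl, a phosphofructokinase gene, was 6.81-fold lower (-1.68 over its probe sets), Hk2, the hexokinase gene, 2.08-fold, and Ldha, the lactate dehydrogenase gene, differed by -1.02. The transporter genes Slc2a1 and Slc2a3 differed by 0.39 (0.0598, not passed) and -1.08 (called). Of 27 subunits of oxidative phosphorylation, 11 were lower and 4 higher, but 7 lower and 8 higher with cyclic loess, so the balance depends on the scaling; 2 were higher without EB_PSC 2 or without ESC 1, and 0 by at least 1 log2 unit. Uqcrc1, of the respiratory chain, differed by -1.76, and Ndufa5, of its first complex, was higher by 0.75 (0.37 over both probe sets).

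Among 21 genes of MHC class I and interferon response, 3 were higher and 8 lower, or 5 lower without EB_PSC 1, without ESC 3 or with cyclic loess. B2m, the light chain of MHC class I, read 11.12 and 11.32 in EB_PSC and 9.01, 8.84 and 8.39 in ESC, 5.55-fold higher (limma adjusted p = 1.69e-07), while the heavy chain gene H2-K1 did not pass (0.10, 0.651). The probe sets of H2-D1, a gene of many alleles, ran both ways, with 3 called lower and 3 higher of 9. Of 18 immediate early genes 6 were higher and 8 lower (7 and 6 with cyclic loess). Egr1 (-2.46) and Fos (-2.39) were lower, and Fosl2 (3.76; 1.87 over both probe sets), Klf6 (1.71) and Jun (1.17) higher. Of 16 hypoxia genes 5 were higher and 4 lower (3 higher without EB_PSC 1, and 7 lower by the mean of all probe sets). Over all genes 19.3% were higher and 25.6% lower, so the lower count was near the share of all genes. Among them P4ha2 (1.19), Adm (0.91) and Vegfa (0.41) were higher, and Angptl4 (-1.64; 0.03 without _x_at and _s_at probe sets), Ddit4 (-1.19) and Hk2 (-1.06) lower.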

How the data were processed

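Biotin-labelled total RNA of 8 samples was hybridised to 1-colour Affymetrix mouse arrays. The deposited values are log2 signals made by the authors with RMA in Bioconductor, per the labels and the submitters' processing notes. The log2 scale was read from the values, which run from 2.561 to 14.86, and no tool version is given in the sources used here. Array values carry no read depth, and the number of arrays limits the precision. Of 45101 probe sets, 34958 name a single gene, 932 several and 9211 none in the platform annotation, and 34754 matched a RefSeq gene by identifier. Each of 18194 genes was represented by its brightest probe set, by the mean of the 8 arrays. A linear model with 1 mean per group was fitted to all 8 arrays in limma 3.58.1 (R 4.3.3), so that the PSC arrays share in the estimate of the spread (residual degrees of freedom 5, prior 8.07). P-values were moderated and two-sided, adjusted by Benjamini-Hochberg over all genes, and called below 0.05. Errors after ± are standard errors of the difference, with n = 2 EB_PSC and n = 3 ESC arrays. Differences per probe set were adjusted over all probe sets of a single gene.

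The steps were tested on simulated data of 18194 genes. Changes of 0.5 log2 units were recovered for 16%, of 1 for 88% and of 2 or 3 for 100%, with 13 false calls. Few genes were changed in that simulation, so its adjusted p was stricter than in the data. A gene without a call can still differ by a small amount. Genes were named by a fixed rule: the 15 largest differences in each direction, up to 6 called members per list, up to 4 against the list's majority, and 40 set genes, of which 38 were measured and H19 and Ccnb1 are not analysed here. Further names in the text, of genes called or not, were chosen after their values were seen. The counts of named genes that kept their call do not cover them. The members and lists were chosen with earlier results of these data known, and 54 of 843 list genes are not analysed here. Alternatives were a further quantile or cyclic loess normalization, a filter on probe sets above the dim limit on fewer than 2 of the 5 arrays, averaging a gene's probe sets, leaving out _x_at and _s_at probe sets, the 5 arrays alone, a trended prior, weights per array, a block for the replicate number, leaving out each array, leaving out chromosomes X and Y, and a minimum of 1 log2 unit. Replicate numbers share no stated culture or day.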

Additional observations from a re-analysis of the deposited data

How the results depend on the processing

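The total of 8165 called genes was 8349 with a further quantile normalization, 8061 with cyclic loess, 8348 with probe set means, 8680 with array weights, 8173 with a trended prior, 7595 on the 5 arrays alone, 7551 after the filter on dim probe sets, 8001 without _x_at and _s_at probe sets and 7843 without chromosomes X and Y. Leaving out an array in turn gave 6997 to 8304, and the replicate block gave 7693 (3346 higher and 4347 lower). Deviations of arrays with the same replicate number correlated at 0.16 and 0.216 between EB_PSC and ESC and at -0.247 to 0.039 in the other 5 pairs, with PSC, which does not show that the numbers pair the samples. The split of higher against lower calls turned with cyclic loess only (4435 and 3626). A minimum of 1 log2 unit left 3282 genes, 1602 higher and 1680 lower. It left, as higher members, 3 primed epiblast, 7 primitive streak, 4 neural, 2 cartilage, 1 Hox, 3 trophoblast, 9 maternally expressed, 4 G1 and 1 hypoxia gene. As lower members it left 1 neural, 1 skeletal muscle, 4 keratin, 2 X inactivation, 6 DNA methylation, 6 BAF, 14 replication, 10 mitosis, 5 G1, 1 Lin28, 2 oxidative phosphorylation and 3 MHC genes. Cyclic loess gave 2 lower X inactivation, 6 BAF, 7 oxidative phosphorylation and 5 MHC genes, 8 higher oxidative phosphorylation and 0 lower smooth muscle genes, probe set means gave 7 lower hypoxia genes, and the trended prior gave 6 higher macrophage genes. The dim filter, which tests fewer genes, gave 1 lower skeletal muscle gene and 5 erythroid, 3 macrophage and 4 neural genes as higher, and 3 neural genes as lower. Without chromosomes X and Y, 0 Y-linked and 0 X inactivation genes were left to call. Leaving out an array gave 4 to 14 higher macrophage, 5 to 7 higher neural, 2 to 5 lower X inactivation, 6 to 11 lower BAF, 5 to 8 lower MHC, 3 to 6 higher hypoxia and 2 to 6 higher oxidative phosphorylation genes. Of 26 list counts of 1 to 3 members, 14 moved by over 1.5 times on leaving out an array. Of the 326 genes named by the fixed rule 323 were called. Of these, 300 to 316 kept their call without an array and 89 were smaller by over 1.5 times with probe set means. Direction reversed without _x_at and _s_at probe sets for Lyz1 (-0.086), Hoxa5 (-0.18), Plagl1 (-0.12) and Angptl4 (0.026), where another probe set stood in. The cause of the other shifts was not tested. Signal over background limits 5971 genes that were dim in both groups, of which 740 were called.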
